A study of Mus musculus with 16 samples.

Results

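The mRNAs described here are 45 messages reported as ligands of FMRP that encode cytoskeletal proteins, motors, large signalling proteins and regulators of RNA, chromatin and protein turnover. They were chosen by gene symbol from a list written down for this purpose, and the evidence for binding itself is not in the files. All 45 were found among 46403 gene symbols, and all 45 passed the filter on low counts, which 11515 genes passed. RNA was sequenced from hippocampal field CA1 of mice in 16 libraries, 8 from animals with the Fmr1 knockout (Fmr1-KO) and 8 from wild-type animals (WT, labelled C57BL/6). All animals had served as yoked controls during active place avoidance, so the task setting was shared by both genotypes. Age, sex, the knockout allele and the relation between the genotypes are not stated in the labels. Each library carries a number and a letter, B or D, whose meaning is not stated, and several libraries share a number. Whether those came from 1 animal or 2 is unknown, so p-values here describe the spread between libraries, which may be partly technical.

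FMRP is an RNA-binding protein of neurons that associates with the coding sequence of many mRNAs and represses their translation on ribosomes. Its reported ligands include many of the longest messages of the brain, among them those of microtubule-associated proteins, motors and the spectrin skeleton, which build and supply axons and dendrites. The comparison asked whether the steady-state amounts of these mRNAs differed in CA1 when FMRP was missing. It does not measure their translation.

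Libraries held 515103 to 3275003 estimated counts, and WT replicates 3 and 6 were the shallowest (878484 and 515103). Those same libraries had 10.35% and 31.59% of their counts on their 10 largest genes, against 3.73% to 6.06% in the others. Fmr1 itself fell from 39.6 to 99.7 CPM in WT to 8.44 to 32 CPM in knockouts, with no overlap (log2 fold change −1.41, SE 0.22, edgeR adjusted p = 0.0112). CPM are counts normalised to library size with TMM factors. The marker list for CA1 pyramidal neurons summed to 7923 to 9046 CPM in knockouts and 7351 to 9910 CPM in WT. It includes Camk2a and Slc17a7, which are not restricted to CA1, so the sum is not specific to that field. Markers of dentate granule cells summed to 3.35 to 18.2 CPM in knockouts and 7.11 to 56.4 CPM in WT, the highest value being that of WT replicate 6.

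The sequences below are stretches of some listed mRNAs, picked for their content of short elements. FMRP has been reported to favour short elements that read TGGA or AGGA in DNA letters, and each line gives the 90 coding bases, inside a single exon, with the most such elements (in capitals, where neighbouring elements may share a base). They belong to the 2 spectrin mRNAs and to Apc2, whose values stand out further on, and to 3 other listed mRNAs, those of Map1a, Ncdn and Celsr3. Sequences are from GENCODE M21 on GRCm38, written 5′ to 3′ on the coding strand.
Sptan1, chr2:29978415-29978504, plus strand: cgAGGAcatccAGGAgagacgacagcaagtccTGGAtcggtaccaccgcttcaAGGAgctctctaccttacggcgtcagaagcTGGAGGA
Sptbn1, chr11:30136018-30136107, minus strand: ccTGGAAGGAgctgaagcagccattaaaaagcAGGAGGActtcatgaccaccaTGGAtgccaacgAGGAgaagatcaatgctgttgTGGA
Apc2, chr10:80302402-80302491, plus strand: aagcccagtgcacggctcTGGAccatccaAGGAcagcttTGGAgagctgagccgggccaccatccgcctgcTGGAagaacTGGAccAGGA
Map1a, chr2:121300645-121300734, plus strand: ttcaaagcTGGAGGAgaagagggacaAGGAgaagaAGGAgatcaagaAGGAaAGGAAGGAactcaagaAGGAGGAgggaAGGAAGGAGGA
Ncdn, chr4:126748562-126748651, minus strand: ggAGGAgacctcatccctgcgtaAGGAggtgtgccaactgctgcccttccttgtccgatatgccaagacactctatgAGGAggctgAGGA
Celsr3, chr9:108840842-108840931, plus strand: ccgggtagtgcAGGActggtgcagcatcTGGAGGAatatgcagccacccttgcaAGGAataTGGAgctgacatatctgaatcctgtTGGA

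The Map1a stretch held 12 of these elements, the Sptbn1 stretch 7 and the Ncdn stretch 4. Such stretches were not sought in other genes, so these counts have no background. Over whole coding sequences, however, the listed mRNAs were ordinary in this respect. On the coding strand TGGA and AGGA together occurred at a median of 16.3 per kb in the 38 listed mRNAs whose leading transcript could be matched, at 16.1 per kb in 986 matched genes of like length and abundance, and at 16.3 per kb in the 8498 matched genes tested. They were found at least once in 100% of the listed mRNAs and in 99.8% of all matched genes. The other reported elements, ACTG and ACTT, had medians of 8.05, 8.02 and 8.18 per kb in the same order. Among the listed mRNAs the density ran from 11 per kb in Ncdn to 24.4 per kb in Sptan1, with Sptbn1 at 22.3 and Apc2 at 14.2 per kb. Such short matches are a description of the letters and not of binding sites.

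The list differed from most genes in size and in abundance. Its median level was 414 CPM, against 30.1 CPM over all genes tested. Its coding sequences had a median of 7.48 kb in 35 coding exons, against 1.43 kb in 9 exons for all matched genes and 2.66 kb in 15 exons for genes of like length and abundance. Transcript length, averaged by abundance over the transcripts of a gene, ran from 3.21 kb (Ncdn) to 17.3 kb (Tnrc6b), and 43 of the 45 lay in the longest 20% of tested genes, which begins at 4.12 kb. Base composition was near that of other genes, with a median of 51.8% GC in the listed transcripts and 50.3% in all matched ones.

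None of the 45 mRNAs passed the test for a difference between genotypes (edgeR quasi-likelihood test, adjusted p from 0.506 to 0.991), where 0.0174% of all genes tested were called. The estimates leaned one way all the same. The log2 fold change of Fmr1-KO over WT was above 0 for 41 mRNAs and below 0 for 4, against 48.1% above 0 among all genes tested. Its median was 0.16 over the list and −0.01 over all genes tested, and single values ran from −0.17 (Map2) to 0.41 (Apc2). At an unadjusted p under 0.05 there were 9 higher, where 3.61% of all genes were, and 0 lower, where 4.28% were. That is 20% of the list, against 13.9% higher among the 1312 other genes of like length and abundance described further on, and 1.68% lower. For all 45 the libraries of the genotypes overlapped, as they did for nearly all genes: every knockout library was above every WT library for 0.00868% of genes and below for 0.0347%. Without WT replicates 3 and 6 the list had 43 above 0 (49.7% of all genes), a median of 0.15 and 10 higher at an unadjusted p under 0.05 (3.99% of all genes). Scaled by library totals alone it had 42 above 0 (54.1% of all genes), a median of 0.21 and 11 higher (3.64%). Of the 1312 genes of like length and abundance, 1002 were above 0 without WT replicates 3 and 6 (median 0.09), with 163 higher. By library totals 1073 of them were above 0 (median 0.13), with 174 higher. The 9 became 20 without Fmr1-KO replicate 5 (4.59% of all genes) and 18 without WT replicate 5 (4.68% of all genes). Genes of like length and abundance were not counted in the fits without a single library.

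**Figure D1:**
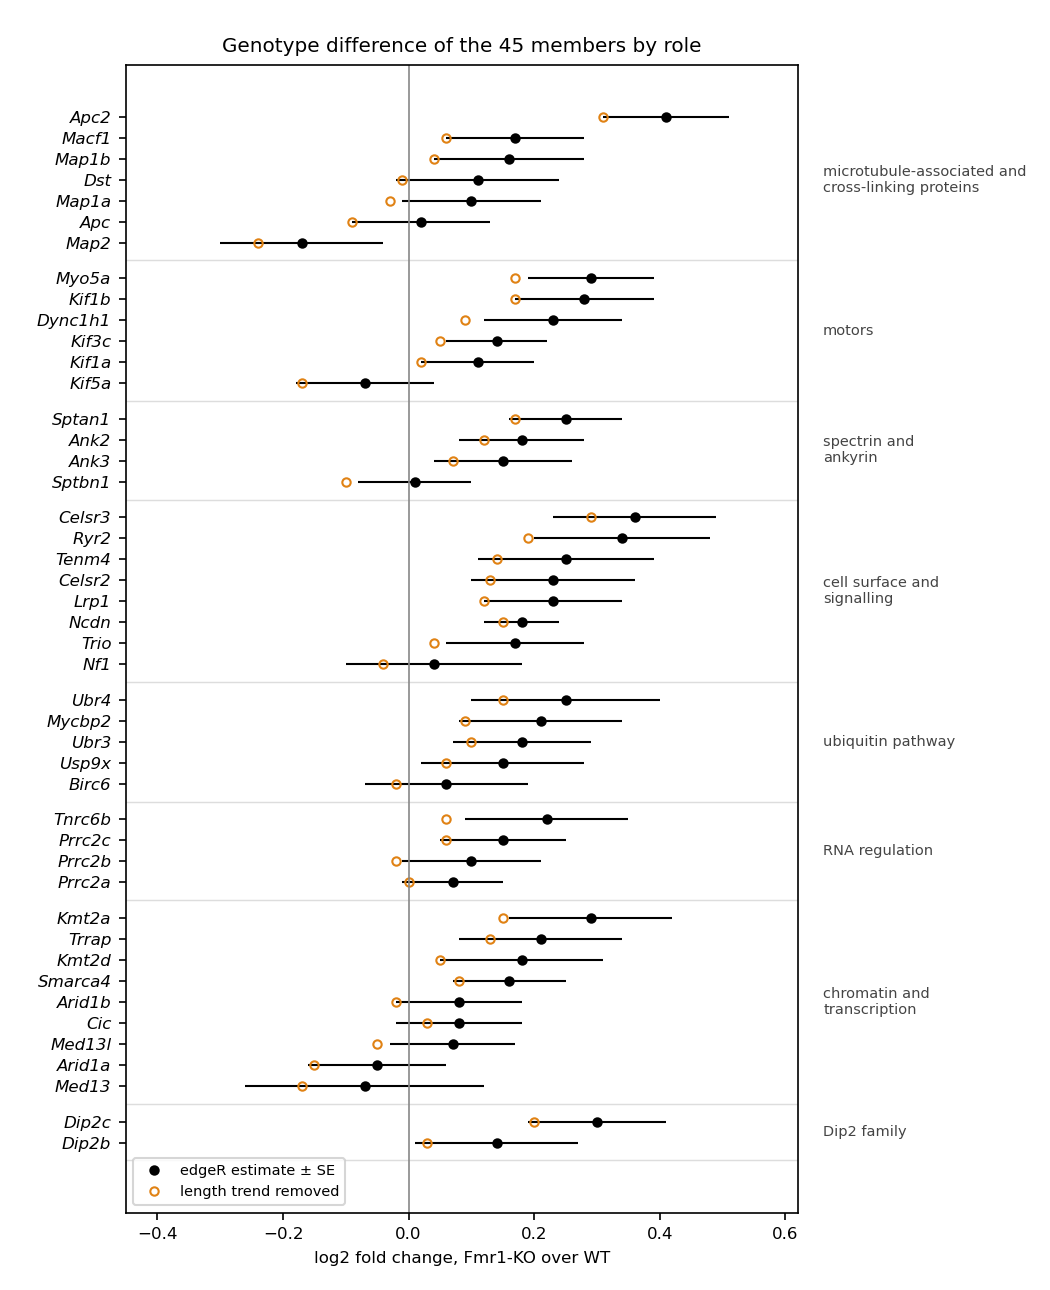
Log2 fold change of Fmr1-KO over WT for the 45 listed mRNAs, grouped by the role of their proteins (8 libraries per genotype). Black points with bars are the edgeR estimate ± SE, open circles the estimate after a trend on transcript length was removed from each library. Estimates lie above 0 for 41 mRNAs, and for 31 once the trend is removed.

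Microtubule-associated and cross-linking proteins came first by role. The 7 mRNAs had a median log2 fold change of 0.11, with 6 above 0. Per kilobase of transcript, Map1a was the most abundant of them (201 CPM per kb in WT), ahead of Map2 (172) and Map1b (102). Map1a and Map1b encode related proteins that stabilise microtubules in mature and in growing neurites, respectively. Map1a ranged from 1610 over a median of 1902 to 2665 CPM in WT and from 1555 over 2254 to 2580 CPM in knockouts. The estimate was 0.10 (SE 0.11, edgeR adjusted p = 0.864), and −0.03 with the length trend described further on removed. Map1b, long studied as an FMRP target, ranged from 908 over 1170 to 1607 CPM in WT and from 977 over 1392 to 1579 CPM in knockouts, and its estimate was 0.16 (SE 0.12, adjusted p = 0.764). In both, the range of one genotype covered most of the other. Map2, the dendritic microtubule-associated protein, was the lowest estimate of the list at −0.17 (SE 0.13). The spectraplakins Macf1 and Dst, giant linkers of actin and microtubules, had 0.17 and 0.11. The symbol Dst covers more than 1 gene identifier in the files.

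Apc2 had the smallest p of the list. It encodes a neuronal relative of the tumour suppressor APC that binds microtubules, and lies on chromosome 10. Its level was 176 CPM at the lowest, 199 at the median and 276 at the highest in WT, and 219, 280 and 334 CPM in knockouts. All 8 Fmr1-KO libraries lay above the WT median and 4 lay above every WT library, while WT replicate 5, the highest WT library, reached into the Fmr1-KO range. This gave 0.41 in log2 fold change (SE 0.10), an unadjusted p of 0.000429 and an edgeR adjusted p of 0.506. It passed in DESeq2 (log2 fold change 0.39, adjusted p = 0.0478) and in none of the 29 other fits, whose adjusted p ranged from 0.0655 to 0.814. Apc itself, the adenomatous polyposis coli gene that also regulates Wnt signalling, had 186, 218 and 268 CPM in WT and 147, 238 and 269 CPM in knockouts (log2 fold change 0.02, SE 0.11).

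Of the 6 mRNAs of motors, 5 had estimates above 0, with a median of 0.18. Myo5a, the myosin that moves organelles along actin into spines, measured 321, 379 and 458 CPM in WT (lowest, median and highest, as in what follows, WT first) against 343, 485 and 540 CPM in knockouts. In Fmr1-KO 5 libraries lay above every WT library, and the lowest, replicate 5, lay below the WT median. Its log2 fold change was 0.29 (SE 0.10, edgeR adjusted p = 0.572, unadjusted p = 0.0101). Kif1b, a kinesin for mitochondria and synaptic vesicle precursors, measured 767, 970 and 1257 CPM against 867, 1238 and 1390 CPM (log2 fold change 0.28, SE 0.11, adjusted p = 0.590). Its relative Kif1a, which carries synaptic vesicle precursors and dense-core vesicles, had 0.11. Dync1h1, the heavy chain of cytoplasmic dynein, measured 914, 1171 and 1406 CPM against 950, 1411 and 1632 CPM (log2 fold change 0.23, SE 0.11, adjusted p = 0.632). On scales corrected for transcript length its estimate was smaller, at 0.09 with log2(TPM + 1) and 0.0089 with length-scaled counts. Kif5a, a conventional kinesin heavy chain and the most abundant motor of the list per kilobase (150 CPM per kb in WT), had 768, 885 and 1414 CPM in WT and 767, 882 and 1118 CPM in knockouts. The 1414 CPM belonged to WT replicate 3, and the log2 fold change of −0.07 became 0.03 without that library. Kif3c, a subunit of a kinesin-2 motor, had 0.14.

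Spectrin and ankyrin form the membrane skeleton beneath the plasma membrane and anchor channels at the axon initial segment and nodes. Sptan1, the alpha chain of brain spectrin, measured 1227, 1479 and 1787 CPM in WT against 1440, 1743 and 2031 CPM in knockouts. Of the Fmr1-KO libraries, 7 lay above the WT median and 2 above every WT library. Its log2 fold change was 0.25 (SE 0.09, unadjusted p = 0.0120, edgeR adjusted p = 0.581). Sptbn1, the beta chain that pairs with it, had nearly equal levels, at 893, 1044 and 1256 CPM in WT and 862, 1100 and 1240 CPM in knockouts (log2 fold change 0.01, SE 0.09). The ankyrins Ank2 and Ank3 had 0.18 (SE 0.10) and 0.15 (SE 0.11), and Ank2 ranged from 561 over 656 to 782 CPM in WT and from 554 over 756 to 886 CPM in knockouts.

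All 8 cell surface and signalling mRNAs had estimates above 0, with a median of 0.23. Ncdn, a cytosolic neuronal protein tied to neurite outgrowth, was the most abundant of the whole list (1144 CPM per kb in WT). It had 3442, 3590 and 4112 CPM in WT and 3835, 4233 and 4349 CPM in knockouts. In Fmr1-KO 6 libraries exceeded every WT library and all 8 exceeded the WT median. The log2 fold change was 0.18 with the smallest SE of the list, 0.06 (unadjusted p = 0.00716, edgeR adjusted p = 0.568). Celsr3, an atypical cadherin that guides axon tracts, measured 118, 240 and 280 CPM against 227, 293 and 348 CPM, with 6 Fmr1-KO libraries above every WT library (log2 fold change 0.36, SE 0.13, adjusted p = 0.572). With log2(TPM + 1) it was 0.17, and with length-scaled counts 0.14. Its relative Celsr2 measured 390, 564 and 718 CPM against 438, 656 and 796 CPM (log2 fold change 0.23, SE 0.13).

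Ryr2, the calcium release channel of the endoplasmic reticulum, was at 443, 587 and 778 CPM in WT and 453, 761 and 957 CPM in knockouts. The ranges started at nearly the same level and 3 Fmr1-KO libraries exceeded every WT library (log2 fold change 0.34, SE 0.14, adjusted p = 0.590). Lrp1, an endocytic receptor of the LDL receptor family, was at 801, 1040 and 1341 CPM in WT and 861, 1265 and 1422 CPM in knockouts. Its log2 fold change of 0.23 (SE 0.11) turned to −0.06 in fits of log2(TPM + 1), so the direction of the sum over its transcripts depends on the scale. The leading transcript, Lrp1-001, carried 98.3% of the counts and had 0.26 in counts (SE 0.12). Tenm4, a teneurin of synaptic adhesion, had 0.25, Trio 0.17, and Nf1, the Ras regulator neurofibromin, 0.04 (−0.07 with log2(TPM + 1)).

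Regulators of protein turnover, RNA and chromatin follow. The 5 ubiquitin pathway mRNAs had a median of 0.18 and all were above 0, from Birc6 at 0.06 (−0.17 with log2(TPM + 1)) to the N-degron ligase Ubr4 at 0.25. Mycbp2, a large ubiquitin ligase of growing axons and the most abundant of these per kilobase (53.9 CPM per kb in WT), had 406, 517 and 720 CPM in WT and 441, 687 and 738 CPM in knockouts (log2 fold change 0.21, SE 0.13, edgeR adjusted p = 0.685). The 4 mRNAs of RNA regulation had a median of 0.12. Tnrc6b, a partner of Argonaute in silencing by microRNAs, was the largest of them at 0.22 (SE 0.13). Prrc2a, the most abundant of the group per kilobase, had 499, 555 and 683 CPM in WT and 516, 598 and 631 CPM in knockouts (log2 fold change 0.07, SE 0.08).

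Of the 9 mRNAs of chromatin and transcription, 7 had estimates above 0 and the median was 0.08. Kmt2a, a histone methyltransferase, measured 239, 336 and 454 CPM in WT against 267, 426 and 496 CPM in knockouts (log2 fold change 0.29, SE 0.13, unadjusted p = 0.0435, edgeR adjusted p = 0.628). Smarca4, the ATPase of the BAF remodelling complex, had 154, 213 and 242 CPM in WT and 207, 235 and 248 CPM in knockouts (log2 fold change 0.16, SE 0.09). Cic, a transcriptional repressor, ranged from 200 over 260 to 309 CPM in WT and from 196 over 278 to 311 CPM in knockouts (log2 fold change 0.08, SE 0.10, and 0.39 with log2(TPM + 1)). Trrap, a scaffold of acetyltransferase complexes, had 0.21, and the Mediator kinase module subunit Med13 had −0.07 with the largest SE of the list, 0.19. The BAF subunits Arid1a and Arid1b had −0.05 and 0.08. Without WT replicates 3 and 6, Med13 had 0.03 and Arid1a 0.05. Dip2c, at 109, 140 and 196 CPM in WT and 142, 180 and 213 CPM in knockouts, had 0.30 (SE 0.11, unadjusted p = 0.0145, adjusted p = 0.581), and Dip2b had 0.14 (SE 0.13).

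Over all genes the estimates also went up with transcript length. When the 11515 tested genes were divided into 5 classes of equal size by length, the median log2 fold change rose in steps from −0.11 in the shortest class over −0.04, −0.01 and 0.03 to 0.06 in the longest. Estimates above 0 made up 33.2% of the shortest class and 62.4% of the longest. The 1312 other genes whose length and mean CPM both lay within the limits of the list had a median of 0.09 and 72.9% above 0. Those genes were still shorter than the list, with a median of 4.69 kb against 7.51 kb. In a narrower window chosen after seeing the data, the middle ranges of the list (5.99 to 9.05 kb and 227 to 752 CPM), 107 other genes had a median of 0.14 with 90.7% above 0 and 28 higher at an unadjusted p under 0.05 (26.2%). The 9 listed mRNAs inside it had a median of 0.21, with 2 higher. With a smooth trend on length removed from each library, the list had a median of 0.06 with 31 of 45 above 0, where 46.9% of all genes were. The 10 that turned below 0 were Map1a, Apc, Dst, Sptbn1, Nf1, Birc6, Prrc2a, Prrc2b, Arid1b and Med13l. In that fit 7 were higher and 1, Map2, was lower at an unadjusted p under 0.05, against 2.72% and 4.91% of all genes. The 7 were Apc2, Kif1b, Myo5a, Sptan1, Celsr3, Ryr2 and Ncdn, and 0 of the 45 passed the adjusted threshold. Of the 1312 genes of like length and abundance, that fit put 734 above 0 (median 0.02), with 87 higher and 55 lower at an unadjusted p under 0.05. Of the 107 genes in the narrower window, 77 were above 0 (median 0.05), with 13 higher and 6 lower. The 9 listed mRNAs inside that window were all above 0 (median 0.13), with 2 higher and 0 lower.

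**Figure D2:**
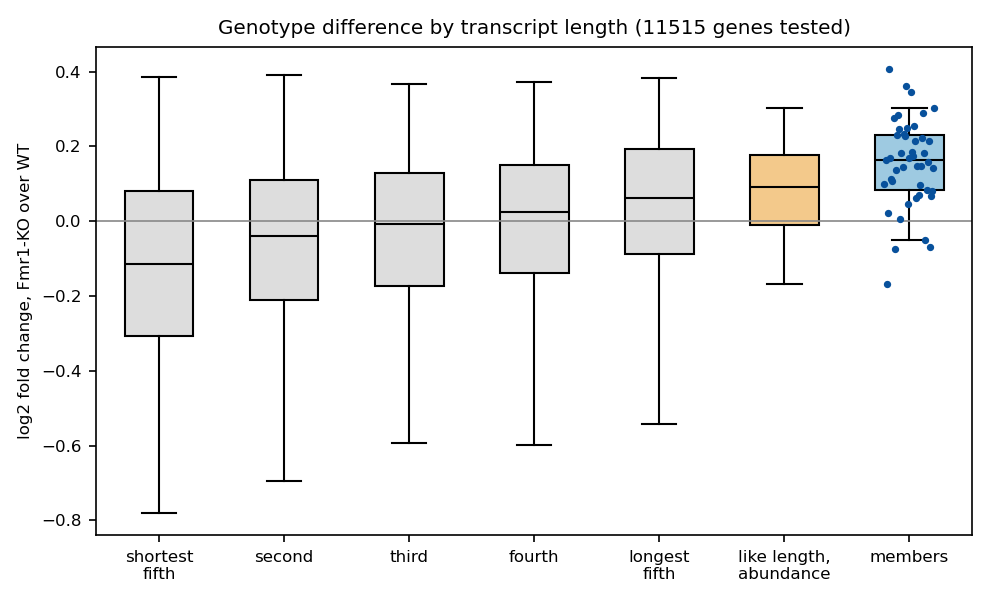
Log2 fold change of Fmr1-KO over WT for all tested genes in 5 classes of transcript length, for the 1312 other genes of like length and abundance, and for the 45 listed mRNAs (points). Boxes span the quartiles around the median and whiskers the 5th to 95th percentiles. Medians climb from −0.11 in the shortest class to 0.06 in the longest, and stand at 0.09 in the like genes and 0.16 in the list.

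Single libraries also differed along transcript length within each genotype. For each gene the deviation of its log2 level from its mean over the 16 libraries was taken, and the median over a set of genes gave that set's position in a library. The listed mRNAs were lowest in Fmr1-KO replicate 5 (−0.36) and in WT replicates 8 (−0.34) and 1 (−0.29), and highest in Fmr1-KO replicates 3 and 7 (0.25 each) and WT replicate 5 (0.22). Other genes of the longest class were lowest in the same 3 libraries (−0.19, −0.16 and −0.16), where genes of the shortest class were highest (0.39, 0.36 and 0.32). The position of the list averaged 0.08 ± 0.20 in knockouts and −0.09 ± 0.20 in WT (SD, n = 8 each). The SD of single libraries within a genotype exceeded the distance between the means. An SD does not measure the precision of a mean, and the difference in position was not tested. As a share of all counts the 45 mRNAs took 2.43% to 3.32% in Fmr1-KO and 1.70% to 3.13% in WT. The 1.70% was that of WT replicate 6, a shallow library, and without replicates 3 and 6 the WT range was 2.43% to 3.13%.

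**Figure D3:**
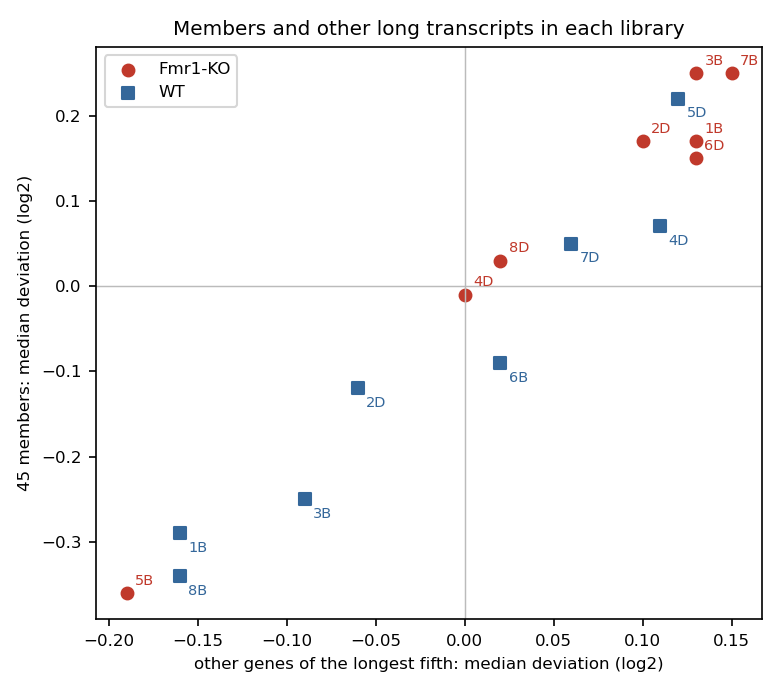
Median log2 deviation of the 45 listed mRNAs (vertical) against that of the other genes in the longest 20% (horizontal), 1 point per library, labelled by replicate number and the letter of the label. Fmr1-KO replicate 5 and WT replicates 1 and 8 lie lowest on both axes.

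The letters in the labels gave 2 further comparisons. Among the 4 Fmr1-KO and 4 WT libraries with the letter B, the median difference of the list was 0.31 in mean log2 CPM, and among the 4 and 4 with the letter D it was 0.04. The corresponding values for the other genes of the longest class were 0.16 and 0.00. Apc2 differed by 0.54 within B and by 0.28 within D. Both shallow WT libraries carry the letter B, and without them, with 2 WT libraries left, the list's value within B was 0.42 and that of Apc2 0.46. The value for the other genes of the longest class was then 0.19. The 2 WT libraries left were replicates 1 and 8, where the list and the other long genes were lowest among WT libraries. Whether the letters differ in the effect of genotype was not tested. With the letter as a covariate the list's median was 0.18 and 41 estimates were above 0 (48.5% of all genes), and 13 mRNAs had an unadjusted p under 0.05, all higher (3.96% of all genes). With the number as a random effect the median was 0.16, with 43 above 0 (50% of all genes) and 13 higher (4.57%). Genes of like length and abundance were not counted in the fits with letter or number.

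Markers of several other cell types had estimates of the opposite sign in the same libraries. They were below 0 for 8 of 8 tested astrocyte markers (median −0.35), 8 of 8 oligodendrocyte markers (−0.40) and 5 of 5 oligodendrocyte precursor markers (−0.46). The same held for 8 of 8 microglial markers (−0.34) and 10 of 10 markers of endothelium and pericytes (−0.55). Above 0 were 48.1% of all genes tested and 33.2% of the shortest class. Without WT replicates 3 and 6 these medians were −0.10, −0.39, −0.07, −0.21 and −0.34. With the length trend removed they were −0.36, −0.36, −0.47, −0.32 and −0.59. Neuronal lists were not exempt, with 6 of 8 interneuron markers below 0 (median −0.27, −0.07 without those libraries) and 3 of 4 tested CA2 and CA3 markers (−0.29 and −0.11). The CA1 markers were divided, 4 above and 4 below 0, and the 1 tested marker of choroid plexus and ependyma had 0.18. Summed levels overlapped between the genotypes, for example 1586 to 2530 CPM in knockouts and 1779 to 5374 CPM in WT for astrocytes. The list's median without those libraries was 0.15. The part of cell makeup in the list's estimates was not tested, and in bulk tissue fewer cells of a type and less RNA per cell cannot be told apart.

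Related mRNAs within the list allowed a comparison inside each library, since a ratio leaves out what the paired mRNAs share. For 15 pairs of related or partner genes the log2 ratio of counts was compared between genotypes (two-sided exact permutation test over the 16 libraries, adjusted over the 15 pairs). The permutation treated libraries that share a number as separate, and no alternative by number was run for the ratios. If such libraries came from 1 animal, these p-values may be too small. The pairs overlap in the Prrc2 family, and all were chosen with earlier results of these data known. Apc2 was already known from those results to have a high estimate in these libraries, so its ratio is no independent support. The adjusted p of the other pairs, Sptan1 to Sptbn1 among them, does not account for that choice either. The ratio of Apc2 to Apc was −0.11 ± 0.20 in WT and 0.30 ± 0.18 in Fmr1-KO (SD, n = 8 each), a difference of 0.41 (exact permutation p = 0.000155, the smallest these 16 libraries can give, adjusted p = 0.00233). Every Fmr1-KO library lay above every WT library, though the nearest values, 0.102 in Fmr1-KO replicate 1 and 0.099 in WT replicate 1, nearly touched. The ratio of Sptan1 to Sptbn1 was 0.47 ± 0.14 in WT and 0.72 ± 0.10 in Fmr1-KO, a difference of 0.25 (exact permutation p = 0.00140, adjusted p = 0.0105). Here WT replicate 6, at 0.69, reached above 3 of the Fmr1-KO libraries. Both differences held without WT replicates 3 and 6 (0.32 and 0.25, adjusted p = 0.00500 for each). Neither passed when TPM replaced counts, where the Apc2 ratio differed by 0.21 (adjusted p = 0.883) and the Sptan1 ratio by 0.22 (adjusted p = 0.189, exact permutation). The ratio of Kif1a to Kif1b differed by −0.17 (exact permutation p = 0.0457) and did not pass over the 15 pairs (adjusted p = 0.228). For the other 12 pairs the difference lay between −0.16 (Celsr2 over Celsr3, SE 0.14) and 0.20 (Dip2c over Dip2b, SE 0.12), and none of these passed.

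**Figure D4:**
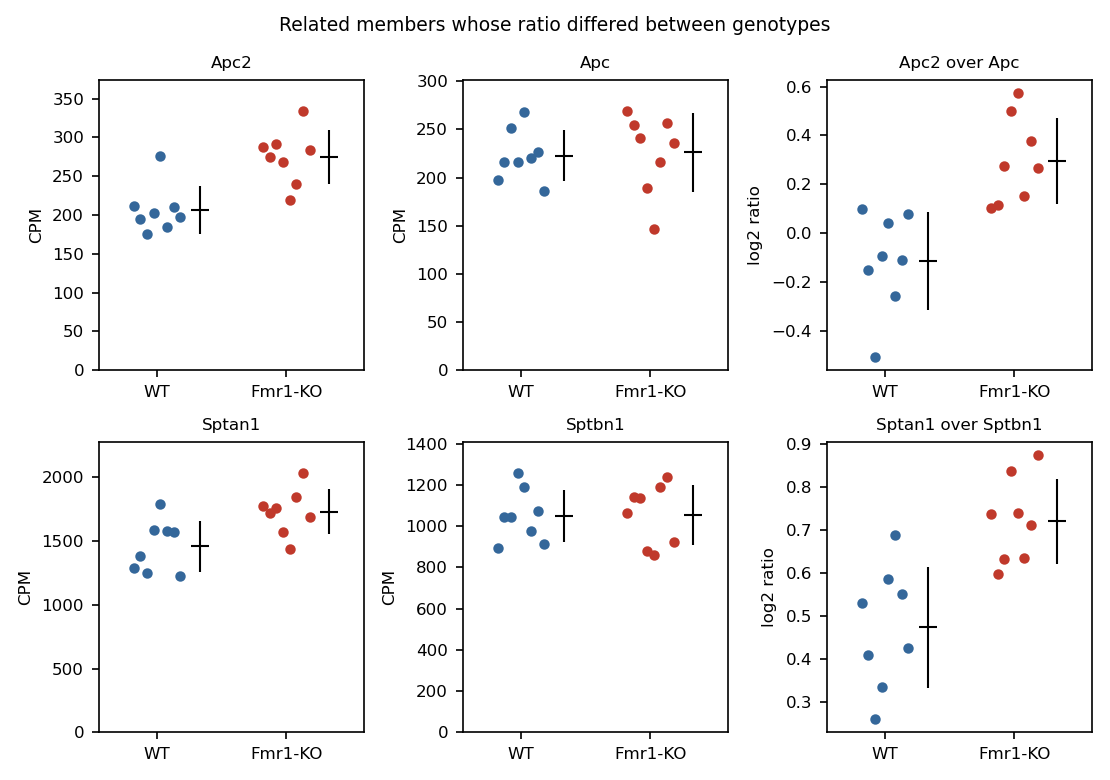
CPM of Apc2, Apc, Sptan1 and Sptbn1 in each library, and the log2 ratio of each pair within libraries (points, with mean ± SD beside them, 8 libraries per genotype). The Apc2 to Apc ratio averages −0.11 in WT and 0.30 in knockouts, and the Sptan1 to Sptbn1 ratio 0.47 and 0.72.

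At the level of transcripts, the files list 431 for the 45 genes, and 161 passed the filter, 131 of them protein-coding and 22 annotated as retaining an intron. By the deposited assignment 94.7% of the genes' counts fell on protein-coding transcripts, 93.6% to 95.5% in Fmr1-KO libraries and 93.5% to 95.4% in WT libraries. The leading transcript was protein-coding for all 45 genes and carried over 90% of the counts in 16. Estimates were above 0 for 113 of the 161 (52.6% of all transcripts). None of the 161 passed (edgeR, where 0.00596% of all 16772 transcripts were called), 8 were higher at an unadjusted p under 0.05 (background 1.85%) and 0 lower (2.06%). Apc2-001, which carried 94.9% of the counts of its gene, stood at 198 ± 45.4 and 280 ± 34.1 CPM in WT and Fmr1-KO (SD, n = 8 each; log2 fold change 0.49, SE 0.13) and passed in DESeq2 (adjusted p = 0.0408). Sptan1-004 had 1274 ± 163 CPM in WT and 1505 ± 180 CPM in knockouts (SD, n = 8 each; 0.24, SE 0.09) and did not pass. Ncdn had both its protein-coding Ncdn-001 (0.17, SE 0.06) and its processed transcript Ncdn-003 (0.26, SE 0.09) in the same direction. Kif1a-005, a minor form of the kinesin, had 63.2 CPM in WT and 120 CPM in knockouts (0.93, SE 0.39), while the leading Kif1a-001 had 0.10 (SE 0.07). The giant genes with many forms were divided among transcripts, so that the leading form held 32.5% of the counts of Ank3 and 31.6% of those of Macf1.

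Other genes of these pathways, from a list of 119 that holds no listed mRNA, had estimates nearer 0. Of 117 tested, 0 passed, 69 had estimates above 0 (59%, against 48.1% of all genes) and the median was 0.04. At an unadjusted p under 0.05 (edgeR) 5 were higher (4.27%, against 3.61% of all genes) and 1 was lower (0.855%, against 4.28%). These 117 genes were shorter and less abundant than the listed mRNAs, with medians of 3.52 kb and 125 CPM against 7.51 kb and 414 CPM. The 32 tubulins and other microtubule-associated proteins had a median of 0.03, with the neuronal tubulin Tubb3 at −0.32 (SE 0.13) and the microtubule-binding kinase Dclk1 at 0.19 (SE 0.08). The 29 other motors and partners had 0.04, with the unconventional myosin Myo18a at 0.31 (SE 0.10, adjusted p = 0.515). Among 12 tested proteins of the membrane skeleton the median was 0.00, and beta-adducin, Add2, had 0.27 (SE 0.09, adjusted p = 0.568). The 10 tested ubiquitin genes had 0.07, with Usp24 at 0.37 (SE 0.15), and the 34 chromatin and Mediator subunits 0.02, with Arid2 at −0.35 (SE 0.18). Usp24, at 8.36 kb, was among the longer of these.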

How the data were processed

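CA1 RNA was sequenced in 16 libraries (8 Fmr1-KO, 8 WT), and the authors deposited 1 table per library in the column layout of kallisto, per the file headers. Tools listed in the submitters' processing notes are kallisto, cutadapt, FastQC and DESeq2, without versions, and no index or build is stated there. Estimated counts, as deposited, come from a model that divides reads among transcripts, so they can be fractional. The deposited TPM values are abundances scaled by effective length within a library. Lengths are per the file headers. Counts of genes that share sequence with close copies depend on that assignment.

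Estimated counts were summed by symbol, rounded and tested by quasi-likelihood in edgeR 4.0.16 in R 4.3.3 (TMM, filterByExpr with a minimum count of 10, no covariate, Benjamini-Hochberg adjustment over all genes, threshold 0.05). Transcripts were tested likewise. The SE is the log2 fold change divided by the square root of the F statistic. Levels are TMM-scaled CPM. The length-trend fit adds a loess curve per library as an offset. Ratios used counts plus 0.5 and were compared by exact permutation (SciPy 1.17.1). The edgeR step was tested on simulated data, with changes placed in genes drawn at random from those past the filter. It recovered 28.4% of 1.5-fold changes, 68.7% of 2-fold and 93.9% of 4-fold changes, with 11 false calls among 11289 genes. The largest estimate of the list, that of Apc2, was 1.33-fold, so small changes can be missed. Coding sequences and positions are from GENCODE M21 (GRCm38), for the 38 listed mRNAs whose leading transcript matched by identifier and length, and the other 7 are left out of sequence values. Depth bounds the precision of low genes, and replicate numbers follow accession order.

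Alternatives were DESeq2 1.42.0, other scalings and filters, limma 3.58.1 on voom values or log2 TPM (pseudocounts of 1 and 0.1), length-scaled counts, the letter or number of the label and omitted libraries. Lowest, median and highest values are given for the 14 mRNAs with the smallest p and for the most abundant per kilobase of each role, beside Map1b, Apc and Sptbn1, which were added because of their relatives. Of other pathway genes up to 3 per list were eligible. The mRNAs, lists and tests were chosen with earlier results of these data known.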

Additional observations from a re-analysis of the deposited data

Results flagged for a closer look

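Of 44 groups of 8 libraries examined for a single library far from the rest, 4 had one, where chance gives about 1 in 20. Apc2 was at 276 CPM in WT replicate 5, above 211 CPM in the next WT library. Kif5a was at 1414 CPM in WT replicate 3, one of the shallow libraries, with the next at 967 CPM. In Fmr1-KO replicate 5, the library in which long transcripts were lowest, Kmt2a was at 267 CPM and Lrp1 at 861 CPM, below 424 and 1170 CPM in the next libraries.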

How the results depend on the processing

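The count of listed mRNAs past the threshold was 0 in every fit except DESeq2, where it was 1 (Apc2), as it was for their transcripts (1, Apc2-001). The median log2 fold change of the list stayed above 0 in all 30 alternatives, at 0.13 to 0.22 with single libraries left out and 0.06 to 0.21 otherwise, the lowest with the length trend removed. That fit also gave 1 mRNA lower at an unadjusted p under 0.05, while the count higher was 9, 20 in limma-voom with quality weights, 5 with log2(TPM + 0.1) and 7 to 20 with single libraries left out. Over all genes 2 passed, 8 in DESeq2, 7 in limma-voom with quality weights, 5 with no filter, and 1 in length-scaled counts and in each of the 3 fits of log2 TPM. Of the related pairs 2 passed with counts and 0 with TPM. Of the 45 mRNAs, 31 kept their direction in all 30 alternatives and 14 turned in at least 1, the most (10) with the length trend removed. Among the mRNAs picked by p or by abundance, direction turned for Lrp1 (−0.14 in length-scaled counts, −0.10 with log2(TPM + 0.1), −0.06 with log2(TPM + 1), filtered or not), for Map1a (−0.03) and Prrc2a (−0.0045) with the length trend removed, and for Kif5a (0.03 without WT replicate 3, alone or together with replicate 6, and −0.12 to 0.03 over all single libraries left out). The cause was not tested. DESeq2 gave no adjusted p for Fmr1. In the 13 other alternatives that kept all libraries or left out WT replicates 3 and 6, Fmr1 was lower throughout (−1.51 to −0.93). It passed in 9 of those 13, with an adjusted p from 0.000738 to 0.812 (edgeR or limma). With single libraries left out it passed in all 16 edgeR fits. No paired analysis was possible because the labels give the genotypes no shared replicate numbers. Depth limits the precision of low mRNAs, most in WT replicates 3 and 6.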
